A study of Rattus norvegicus with 18 samples.

Results

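Rat primordial germ cells (PGCs) at embryonic day 11.5 (E11.5) were compared with PGCs at E10.5. Each day had 2 RNA-seq libraries, so 4 of the 18 libraries of a series on rat PGCs and epiblasts entered the comparison. All 4 were labelled as PGCs of the Wistar strain Crlj:WI with the genotype Prdm14-Venus, which the other 14 libraries also carried, and the labels name no treatment and no further allele. Prdm14 is a transcriptional regulator needed for PGC formation and Venus is a yellow fluorescent protein. The form of this allele, the way the cells were isolated, the number of embryos in a library and their sex at these 2 days are not given in the labels. The labels do not say that the 2 libraries of a day came from separate litters, so p-values measure the spread between libraries, which may be technical. Values are RPKM, read numbers divided by gene length and by sequencing depth. A gene was included when its value reached 1 RPKM in at least 2 of the 4 libraries, and 11320 of the 32545 genes in the table did. Just inside that limit was Atp7a, whose second highest value was 1.001 RPKM, and just outside was Ifit1, whose second highest value was 0.999 RPKM.

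PGCs are the embryonic precursors of eggs and sperm. In rodents they are set aside near the extraembryonic tissues in response to bone morphogenetic protein (BMP) signals, move through the hindgut and settle in the genital ridges that become the gonads. They keep pluripotency genes such as Pou5f1 and Nanog active and lose most of their DNA methylation. Around colonisation of the gonad they switch on a later programme of RNA-binding proteins, transposon-silencing factors and meiotic genes, of which Dazl and Ddx4 are the best known members.

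The files give no read counts, so the absolute depth is unknown. The spacing of the low values gave relative depths of 20.7% and 22.1% of the E7.75 female epiblast library for E10.5 and 22.9% and 22.3% for E11.5, against 82.6% to 120.9% for the other libraries. These estimates rested on 38 to 81 genes per library. The 2 days were thus of like depth, and both were shallower than the rest of the series. At E10.5, 4.54% and 4.67% of the tested genes were listed at 0, against 1.47% and 1.56% at E11.5. The median difference between the 2 libraries of a day, as an absolute log2 value, was 0.405 at E10.5 and 0.247 at E11.5. The summed RPKM was 849182 and 760137 at E10.5 and 671179 and 669651 at E11.5. Some genes that every cell uses are also listed at 0, so a 0 is given here as a listed value with no fold against it.

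Between E10.5 and E11.5, 15 of 28 tested genes of the gonadal germ cell programme rose. In 6 of the 28 the filter was reached only through E11.5, so these had to be higher there. Of the tested genes of the BMP list 8 of 20 fell, and of the Hox and caudal patterning genes 5 of 9. In 2 of these 9 the filter was reached only through E10.5, so these had to be lower at E11.5. Such genes enter the list counts and medians. A p-value given for such a gene is no support for its direction. Of the genes for mitochondrial respiration encoded in the nucleus 33 of 68 fell, of ribosomal protein genes 27 of 56 and of proteasome and antigen processing genes 12 of 26. With limma on log2(RPKM + 1) and the Benjamini-Hochberg adjustment over all tested genes, 1330 of 11320 genes (11.7%) passed an adjusted p of 0.05, 651 higher (5.75%) and 679 lower (6.0%) at E11.5. Of these, 504 were higher and 248 lower by at least 1 on the log2 scale. In all 1330 the libraries of the 2 days did not overlap, as in 51.7% of all tested genes. The median log2 fold change over all tested genes was 0.06. Fold changes are on the log2(RPKM + 1) scale, which understates the change of low genes. A fit that let the spread differ between groups (group weights) called 492 genes (4.35%), 232 higher and 260 lower, all of them among the 1330. The 4 libraries alone gave 82. Leaving out E10.5 replicate 1 gave 711, E10.5 replicate 2 gave 1583, E11.5 replicate 1 gave 411 and E11.5 replicate 2 gave 431. When each library was scaled to the same summed RPKM, an alternative chosen after the data were seen, the median of all genes moved to 0.29, and 78.7% of 1688 calls were higher in place of 48.9%.

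**Figure D1:**
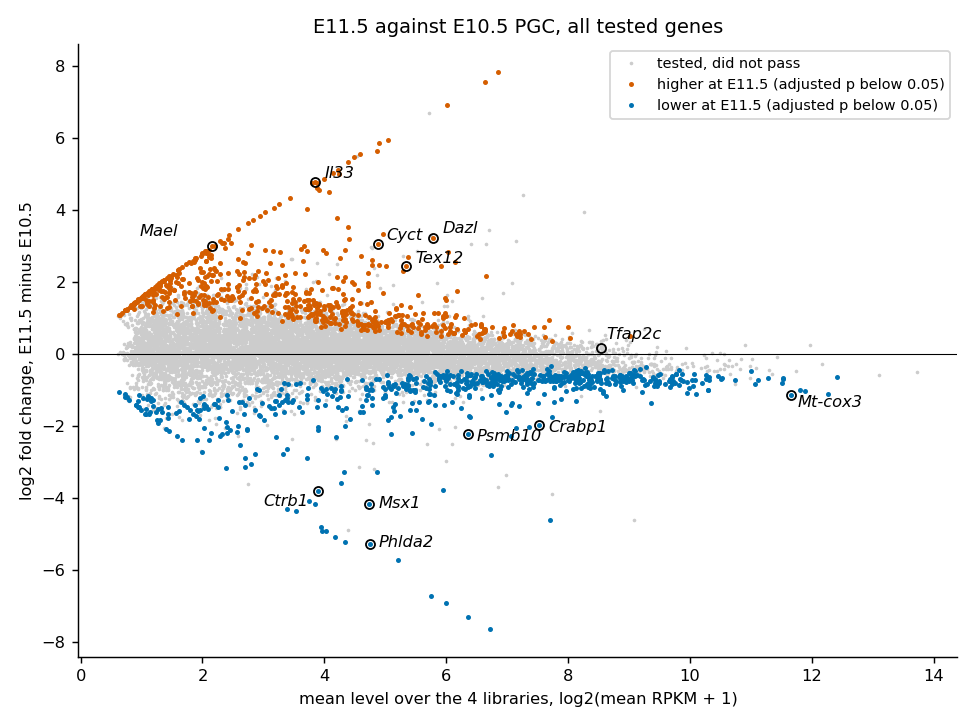
Log2 fold change of every tested gene between E11.5 and E10.5 (vertical axis) against its mean level over the 4 libraries, log2(mean RPKM + 1) (horizontal axis). Each point is a gene, coloured where it passed an adjusted p of 0.05, and the circled genes are ones described in the text. Points on the outer diagonals are genes listed at or near 0 at 1 of the 2 days. Most of the highly expressed genes that passed lie below 0.

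The label was checked against 2 PGC markers. Tfap2c, a transcription factor of PGC specification, was at 366 and 334 RPKM at E10.5 and 383 and 396 RPKM at E11.5. Tfap2c was thus high in all 4 libraries and did not pass (log2 fold change 0.16 ± 0.22 SE, limma adjusted p = 0.70). Dazl, an RNA-binding regulator of translation in germ cells, was at 7.31 and 12.6 RPKM at E10.5 and 87.2 and 109.9 RPKM at E11.5. Both markers were present at both days, and Dazl was 9.92-fold higher in mean RPKM at E11.5 (log2 fold change 3.22 ± 0.40 SE, limma adjusted p = 2.4e-04). Its level was 0.310 and 0.0451 RPKM at E9.5 and 394 and 369 RPKM at E12.5, so that E10.5 and E11.5 lay between a near-zero and a high level. Prdm14, the gene named in the genotype, was at 0.299 and 11.6 RPKM at E10.5 and 9.46 and 8.70 RPKM at E11.5, so 1 E10.5 library stood far below the other 3 (log2 fold change 1.32 ± 0.75 SE, limma adjusted p = 0.28).

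Gonadal germ cell and genome defence genes gave rises and no falls. Of 38 listed genes, 37 had a line in the table and 28 passed the filter. Of these 28, 15 were higher, 0 were lower and 13 did not pass, beside 5.75% higher and 6.0% lower over all tested genes. The median log2 fold change was 1.68 beside 0.06 over all tested genes. The germ cell list had 12 higher and 0 lower with group weights, 18 and 0 with equal column sums (median 1.84), 11 and 0 without E10.5 replicate 1 (median 1.83), 13 and 0 without E10.5 replicate 2 (median 1.42), 7 and 0 without E11.5 replicate 1 (median 1.70) and 9 and 0 without E11.5 replicate 2 (median 1.52). In 6 of the 28, among them Mael, Gtsf1, Tdrd1, Dmrt1 and Taf7l, the filter was reached only through E11.5, so these had to be higher there. These 6 enter the counts and medians above, and their p-values are no support for a rise. Among regulators of germ cell RNA and translation, Ddx4, the vasa RNA helicase, was at 9.18 and 7.68 RPKM at E10.5 and 23.03 and 35.7 RPKM at E11.5. Ddx4 was 3.48-fold higher in mean RPKM (log2 fold change 1.66 ± 0.49 SE, limma adjusted p = 0.04), with a further step to 139 and 126 RPKM at E12.5. Stk31, a tudor domain protein of germ cells, was at 3.53 and 7.77 RPKM at E10.5 and 45.4 and 36.5 RPKM at E11.5 (log2 fold change 2.73 ± 0.42 SE, limma adjusted p = 0.0012). Of the factors that silence transposons, Mael was listed at 0 in both E10.5 libraries and was at 7.04 and 6.84 RPKM at E11.5 (limma adjusted p = 4.2e-04). Gtsf1, a partner of Piwi proteins, was at 0.305 and 0 RPKM at E10.5 and 6.89 and 5.94 RPKM at E11.5 (log2 fold change 2.70 ± 0.34 SE, limma adjusted p = 2.4e-04). Tdrd1, which organises the germ granule, was at 0.0941 and 0.898 RPKM at E10.5 and 6.82 and 6.37 RPKM at E11.5 (log2 fold change 2.40 ± 0.52 SE, limma adjusted p = 0.0092). Mov10l1, a helicase for Piwi-interacting RNA precursors, was at 1.94 and 2.14 RPKM at E10.5 and 9.96 and 11.5 RPKM at E11.5 (log2 fold change 1.95 ± 0.34 SE, limma adjusted p = 0.0026). As in every gene that passed and rose, both E11.5 libraries lay above both E10.5 libraries in each of these genes. That also held in 27.6% of all tested genes. E12.5 was higher still, as the panels of germ cell genes show for all of these but Mov10l1, which has no panel.

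Tex19.1, a germ cell factor that restrains retrotransposons, was at 10.7 and 21.1 RPKM at E10.5 and 123 and 103 RPKM at E11.5 (log2 fold change 2.82 ± 0.60 SE, limma adjusted p = 0.009). Gpat2, an acyltransferase also linked to Piwi-interacting RNAs, was at 4.96 and 0.581 RPKM at E10.5 and 18.5 and 24.5 RPKM at E11.5, with the E10.5 libraries far apart (log2 fold change 2.86 ± 0.56 SE, limma adjusted p = 0.0056). Among transcription factors, Sohlh2, needed for early germ cell differentiation, was at 4.35 and 4.02 RPKM at E10.5 and 35.7 and 28.7 RPKM at E11.5 (log2 fold change 2.67 ± 0.58 SE, limma adjusted p = 0.0092). Dmrt1, a regulator of sexual fate, was at 0.962 and 0 RPKM at E10.5 and 5.38 and 4.74 RPKM at E11.5 (log2 fold change 2.11 ± 0.54 SE, limma adjusted p = 0.02). The other members that rose were Taf7l, Brdt, Tex101 and Hormad1. Members that did not pass included Piwil2, a Piwi protein, at 6.85 and 8.46 RPKM at E10.5 and 18.1 and 19.5 RPKM at E11.5 (log2 fold change 1.20 ± 0.39 SE, limma adjusted p = 0.055), and Asz1 at 10.8 and 8.90 RPKM at E10.5 and 22.3 and 33.6 RPKM at E11.5 (log2 fold change 1.39 ± 0.45 SE, limma adjusted p = 0.058). Rhox5, the most abundant member that did not pass, was already at 313 and 276 RPKM at E10.5 and 371 and 375 RPKM at E11.5. Dnd1, an RNA-binding protein that protects PGCs, was at 125 and 103 RPKM at E10.5 and 152 and 138 RPKM at E11.5 and did not pass either. Piwil4, Nanos2 and 7 more members were under the filter.

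Ddx4 (limma adjusted p = 0.11) and Sohlh2 (0.064) did not pass with group weights. Ddx4 (adjusted p = 0.098), Tdrd1 (0.067) and Tex19.1 (0.068) did not pass without E10.5 replicate 1. Ddx4 (adjusted p = 0.10) and Dmrt1 (0.096) did not pass without E10.5 replicate 2. Ddx4 (adjusted p = 0.081), Tdrd1 (0.059), Tex19.1 (0.065), Sohlh2 (0.068) and Dmrt1 (0.10) did not pass without E11.5 replicate 1. Ddx4 (adjusted p = 0.23), Tdrd1 (0.053), Gpat2 (0.052) and Dmrt1 (0.088) did not pass without E11.5 replicate 2. Stk31, Mov10l1 and Dazl passed in all 6 of these fits. Mael and Gtsf1 passed too, but the filter had fixed their direction.

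**Figure D2:**
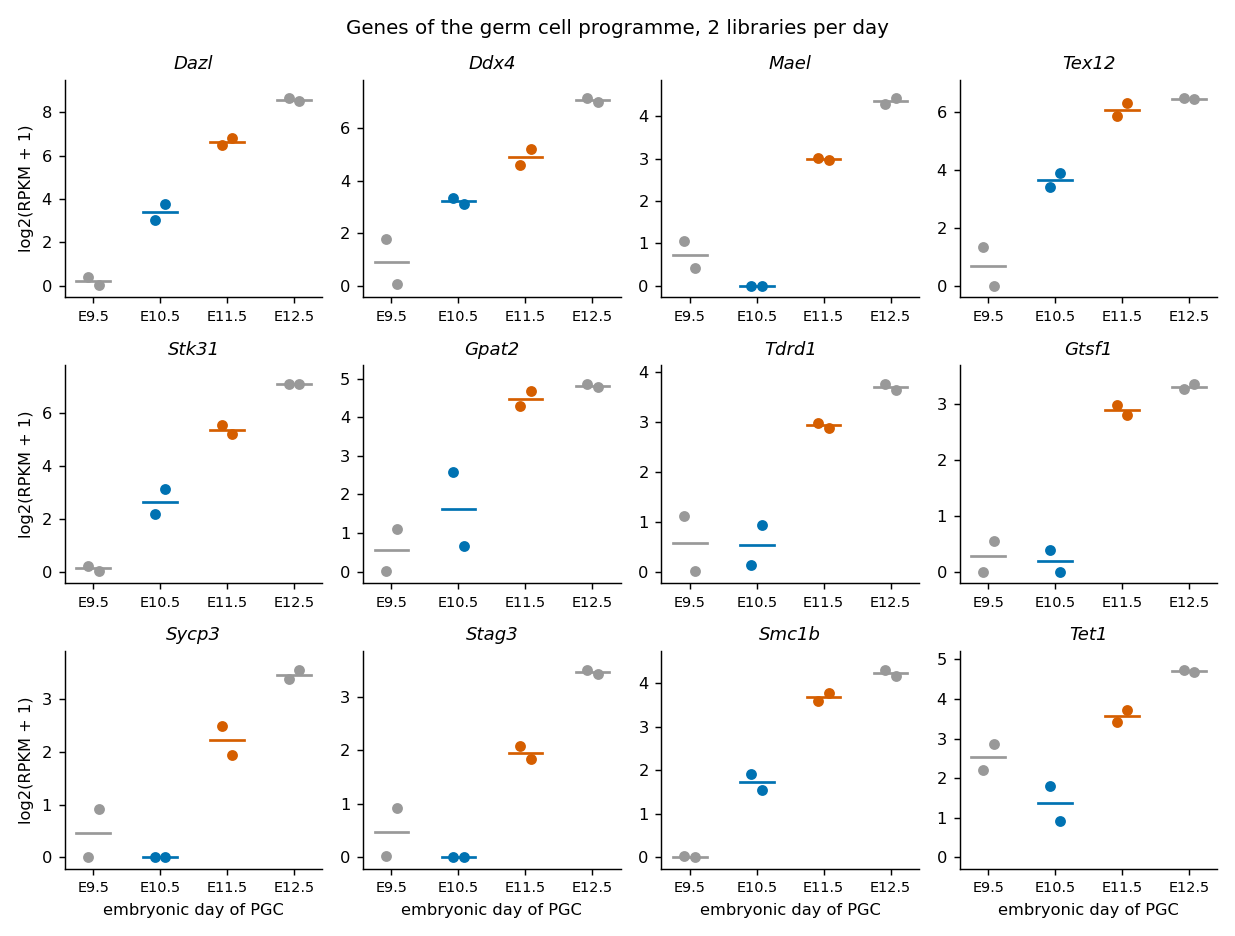
Level of 12 germ cell genes in each library, as log2(RPKM + 1), against the embryonic day of the PGCs. Points are libraries (2 per day), horizontal bars are the mean of the 2 points, and E10.5 and E11.5 are coloured blue and orange. In all 12 panels both orange points lie above both blue points, as in every gene that passed and rose. That also held in 27.6% of all tested genes. In Mael, Gtsf1, Tdrd1, Sycp3 and Stag3 the filter had fixed this order. Mael, Sycp3 and Stag3 are listed at 0 in both E10.5 libraries.

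Promoters of germ cell genes that rose were taken from RefSeq (build GRCr8, windows from 250 bases before to 50 bases after the gene start) and searched for the E-box CACGTG, which basic helix-loop-helix factors bind, and for the core TTCCCGC of E2F sites. The E-box reads the same on both strands, the E2F core was searched on both, and the 2 motifs can share at most 1 base. All 21 higher members of the germ cell and meiosis lists had an entry, and 10 (47.62%) held the E-box. It was in 6.42% of all 33469 promoters and in 10.3% of those with at least 10 CG. Of the promoters of all tested genes, it was in 12.33% where the gene rose, 9.27% where it fell and 9.8% where it did not pass. Of the list members that did not pass and had an entry, 1 of 12 held it. The E2F core was in 5 of the 21. It was in 4.21% of all promoters, in 8.8% of those with at least 10 CG, in 8.6% of the promoters of all genes that rose, in 9.25% of those of genes that did not pass, and in 1 of 12 members that did not pass. These shares describe letters and were not tested. Promoters are shown here for 5 genes that rose and hold an E-box, so that the motif can be seen in its place: the 200 bases before the start are printed 5′ to 3′ on the strand of the gene, with the E-box (CACGTG) and the E2F core (TTCCCGC or GCGGGAA) in capitals. The windows are chr2:46015952-46016151 (reverse strand), chr1:265880825-265881024 (forward strand), chr4:79701541-79701740 (forward strand), chr7:24761276-24761475 (forward strand) and chr2:185805472-185805671 (forward strand). Sycp3 holds 2 E-boxes, and Ddx4 and Hormad1 hold an E-box and the E2F core.
Ddx4: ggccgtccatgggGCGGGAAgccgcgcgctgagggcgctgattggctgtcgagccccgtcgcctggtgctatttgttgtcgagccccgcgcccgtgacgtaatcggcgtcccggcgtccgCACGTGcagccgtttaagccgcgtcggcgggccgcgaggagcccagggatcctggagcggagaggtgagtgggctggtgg
Tdrd1: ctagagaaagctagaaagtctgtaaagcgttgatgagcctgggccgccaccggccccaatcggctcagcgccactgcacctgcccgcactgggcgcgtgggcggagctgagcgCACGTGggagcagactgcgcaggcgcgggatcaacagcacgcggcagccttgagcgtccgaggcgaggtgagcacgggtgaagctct
Stk31: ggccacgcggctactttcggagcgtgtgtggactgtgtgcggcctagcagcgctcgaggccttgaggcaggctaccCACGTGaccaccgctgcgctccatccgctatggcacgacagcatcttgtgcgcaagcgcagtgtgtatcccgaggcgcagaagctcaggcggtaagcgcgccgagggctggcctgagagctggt
Sycp3: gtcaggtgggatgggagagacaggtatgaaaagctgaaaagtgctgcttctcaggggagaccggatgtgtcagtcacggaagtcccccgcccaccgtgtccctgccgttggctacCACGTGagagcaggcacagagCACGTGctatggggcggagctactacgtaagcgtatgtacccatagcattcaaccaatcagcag
Hormad1: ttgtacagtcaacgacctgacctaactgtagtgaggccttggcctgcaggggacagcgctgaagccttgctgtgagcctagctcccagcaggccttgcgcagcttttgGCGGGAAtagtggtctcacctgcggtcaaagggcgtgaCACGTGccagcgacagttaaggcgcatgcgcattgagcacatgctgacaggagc

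Meiotic genes gave more rises than falls. Of 32 listed genes, 28 had a line in the table and 17 passed the filter. Of these, 7 were higher, 1 was lower and 9 did not pass, beside 5.75% higher and 6.0% lower over all tested genes. The median log2 fold change was 0.87 beside 0.06 over all genes. The meiosis list had 5 higher and 0 lower with group weights, 7 and 0 with equal column sums (median 0.998), 6 and 0 without E10.5 replicate 1 (median 1.141), 8 and 1 without E10.5 replicate 2 (median 1.12), 3 and 0 without E11.5 replicate 1 (median 1.03) and 4 and 0 without E11.5 replicate 2 (median 1.41). Sycp3 and Stag3 reached the filter's 1 RPKM only at E11.5 and so had to be higher there. Spo11 reached the filter's 1 RPKM only at E10.5 and so had to be lower at E11.5. Several members that rose encode structural proteins of the meiotic chromosome. Tex12, a synaptonemal complex protein, was at 9.54 and 13.8 RPKM at E10.5 and 57.1 and 77.2 RPKM at E11.5 and so 5.75-fold higher in mean RPKM (log2 fold change 2.43 ± 0.44 SE, limma adjusted p = 0.0035). Smc1b, a meiotic cohesin subunit, was at 2.80 and 1.94 RPKM at E10.5 and 11.1 and 12.6 RPKM at E11.5 (log2 fold change 1.94 ± 0.31 SE, limma adjusted p = 0.0016). Sycp3, of the chromosome axis, was listed at 0 in both E10.5 libraries and was at 4.59 and 2.85 RPKM at E11.5 (limma adjusted p = 0.0041). Stag3, another cohesin subunit, was likewise listed at 0 at E10.5 and was at 3.23 and 2.56 RPKM at E11.5 (limma adjusted p = 0.013). Hormad1, an axis protein that belongs to both germ cell lists, was at 1.23 and 0 RPKM at E10.5 and 6.54 and 5.48 RPKM at E11.5 (log2 fold change 2.23 ± 0.46 SE, limma adjusted p = 0.007). The other members that rose were Hspa2 and Hormad2. Spo11, which makes the meiotic DNA breaks, went the other way, at 2.06 and 1.28 RPKM at E10.5 and 0.292 and 0.119 RPKM at E11.5 (log2 fold change -1.13 ± 0.33 SE, limma adjusted p = 0.04). Stra8, the inducer of meiosis, was listed at 0 in all 4 libraries, and Dmc1 and Prdm9 stayed below the filter. Spo11 (limma adjusted p = 0.10) did not pass with group weights. Spo11 (adjusted p = 0.065) did not pass with equal column sums. Stag3 (adjusted p = 0.052) and Spo11 (0.18) did not pass without E10.5 replicate 1. Stag3 (adjusted p = 0.082), Hormad1 (0.055) and Spo11 (0.10) did not pass without E11.5 replicate 1. Stag3 (adjusted p = 0.058) and Spo11 (0.18) did not pass without E11.5 replicate 2. Tex12 and Smc1b passed in all 6 of these fits. Sycp3 passed too, but the filter had fixed its direction.

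Of the tested genes that specify PGCs 13.3% were called, beside 11.7% over all tested genes. Of 20 listed genes, 18 had a line in the table and 15 passed the filter. Of these, 1 was higher and 1 lower, beside 5.75% higher and 6.0% lower over all tested genes. The median log2 fold change was 0.26. Lin28a, an RNA-binding protein that blocks let-7 maturation, was at 26.8 and 42.4 RPKM at E10.5 and 75.02 and 75.4 RPKM at E11.5 (log2 fold change 1.13 ± 0.16 SE, limma adjusted p = 5.5e-04). Ifitm3, an interferon-induced membrane protein that marks early PGCs, was at 348 and 319 RPKM at E10.5 and 145 and 133 RPKM at E11.5 (log2 fold change -1.26 ± 0.36 SE, limma adjusted p = 0.033). Prdm1, the repressor of the somatic programme, was at 13.7 and 20.1 RPKM at E10.5 and 21.4 and 18.9 RPKM at E11.5 (log2 fold change 0.26 ± 0.33 SE, limma adjusted p = 0.67). Nanos3, an RNA-binding survival factor, was at 90.01 and 150.0 RPKM at E10.5 and 178 and 148 RPKM at E11.5 (log2 fold change 0.48 ± 0.49 SE, limma adjusted p = 0.58). Kit, the receptor through which PGCs receive survival signals, was at 45.4 and 64.8 RPKM at E10.5 and 105 and 109 RPKM at E11.5, higher in both E11.5 libraries but short of the threshold (log2 fold change 0.96 ± 0.49 SE, limma adjusted p = 0.22). Cxcr4, a chemokine receptor that guides migration, was at 26.98 and 22.8 RPKM at E10.5 and 17.7 and 16.4 RPKM at E11.5 (log2 fold change -0.51 ± 0.56 SE, limma adjusted p = 0.61). Dppa3, a maternal factor known for protecting DNA methylation, was under the filter at 0.537 and 0 RPKM at E10.5 and 0.485 and 0.498 RPKM at E11.5, beside 0.106 and 31.3 RPKM at E9.5 and 85.7 and 81.7 RPKM at E12.5. The PGC specification list had 1 higher and 0 lower with group weights, 1 and 0 with equal column sums (median 0.51), 2 and 0 without E10.5 replicate 1 (median -0.001), 2 and 0 without E10.5 replicate 2 (median 0.09), 1 and 0 without E11.5 replicate 1 (median 0.18) and 1 and 0 without E11.5 replicate 2 (median 0.35). Of Dppa3, the E9.5 libraries differed widely, and the levels at E10.5 and E11.5 were low in all 4. Ifitm3 did not pass with group weights (limma adjusted p = 0.14), with equal column sums (0.07), without E10.5 replicate 1 (0.13), without E10.5 replicate 2 (0.065), without E11.5 replicate 1 (0.11) or without E11.5 replicate 2 (0.15). Lin28a passed in all 6 of these fits.

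Of the tested pluripotency genes 21.4% were called, beside 11.7% over all tested genes. Of 22 listed genes, 18 had a line in the table and 14 passed the filter. Of these, 2 were higher and 1 lower, beside 5.75% higher and 6.0% lower over all tested genes. The median was 0.01. Pou5f1, the core pluripotency factor, was at 388 and 317 RPKM at E10.5 and 189 and 227 RPKM at E11.5 and lower in both E11.5 libraries, and did not pass (log2 fold change -0.76 ± 0.40 SE, limma adjusted p = 0.24). Nanog was at 77.5 and 89.3 RPKM at E10.5 and 86.2 and 71.7 RPKM at E11.5 (log2 fold change -0.08 ± 0.63 SE, limma adjusted p = 0.96) and Sox2 at 157 and 148 RPKM at E10.5 and 158 and 182 RPKM at E11.5 (log2 fold change 0.15 ± 0.27 SE, limma adjusted p = 0.78). Both are transcription factors of the same core. Utf1, the most abundant member, was at 1982 and 1861 RPKM at E10.5 and 1884 and 1599 RPKM at E11.5, with overlapping libraries. Tdgf1, a co-receptor for NODAL, was at 3.46 and 1.85 RPKM at E10.5 and 23.2 and 17.9 RPKM at E11.5 (log2 fold change 2.58 ± 0.70 SE, limma adjusted p = 0.027). Fbxo15, a target of the core factors, was at 1.44 and 2.08 RPKM at E10.5 and 7.62 and 6.59 RPKM at E11.5 (log2 fold change 1.56 ± 0.36 SE, limma adjusted p = 0.014). Tbx3, a T-box factor, was at 1.58 and 3.91 RPKM at E10.5 and was listed at 0 in both E11.5 libraries (limma adjusted p = 0.0057). Tbx3 reached the filter's 1 RPKM only at E10.5 and so had to be lower at E11.5. The pluripotency list had 1 higher and 1 lower with group weights, 3 and 1 with equal column sums (median 0.26), 0 and 1 without E10.5 replicate 1 (median -0.14), 1 and 1 without E10.5 replicate 2 (median 0.04), 0 and 1 without E11.5 replicate 1 (median -0.13) and 0 and 1 without E11.5 replicate 2 (median 0.05). Fbxo15 (limma adjusted p = 0.063) did not pass with group weights. Tdgf1 (adjusted p = 0.06) and Fbxo15 (0.074) did not pass without E10.5 replicate 1. Tdgf1 (adjusted p = 0.093) did not pass without E10.5 replicate 2. Tdgf1 (adjusted p = 0.14) and Fbxo15 (0.086) did not pass without E11.5 replicate 1. Tdgf1 (adjusted p = 0.096) and Fbxo15 (0.063) did not pass without E11.5 replicate 2. Tbx3 passed in all 6 of these fits, but the filter had fixed its direction.

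Among genes that set or remove DNA methylation, Tet1 showed the largest rise. Of 25 listed genes, 24 had a line in the table and 21 passed the filter. Of these, 5 were higher and 0 lower, beside 5.75% higher and 6.0% lower over all tested genes. The median was 0.26. The DNA methylation list had 1 higher and 0 lower with group weights, 5 and 0 with equal column sums (median 0.42), 4 and 1 without E10.5 replicate 1 (median 0.05), 2 and 1 without E10.5 replicate 2 (median 0.46), 1 and 0 without E11.5 replicate 1 (median 0.20) and 2 and 0 without E11.5 replicate 2 (median 0.10). Tet1, which oxidises 5-methylcytosine, was at 2.51 and 0.906 RPKM at E10.5 and 9.72 and 12.1 RPKM at E11.5 (log2 fold change 2.19 ± 0.33 SE, limma adjusted p = 0.0011). It was 6.38-fold higher in mean RPKM and reached 25.6 and 24.6 RPKM at E12.5. Uhrf1, which brings the maintenance methyltransferase to replicated DNA, was at 8.69 and 13.5 RPKM at E10.5 and 29.8 and 22.3 RPKM at E11.5 (log2 fold change 1.18 ± 0.29 SE, limma adjusted p = 0.019). Gadd45b, Mbd1 and Parp1 were the other members that rose. The maintenance enzyme Dnmt1 was at 12.9 and 29.9 RPKM at E10.5 and 15.7 and 20.9 RPKM at E11.5, with overlapping libraries (log2 fold change -0.12 ± 0.38 SE, limma adjusted p = 0.88). The de novo enzymes stayed low, with Dnmt3a at 4.26 and 2.31 RPKM at E10.5 and 5.47 and 6.28 RPKM at E11.5 (log2 fold change 0.72 ± 0.32 SE, limma adjusted p = 0.16) and Dnmt3b at 7.52 and 15.8 RPKM at E10.5 and 11.2 and 15.9 RPKM at E11.5 (log2 fold change 0.26 ± 0.39 SE, limma adjusted p = 0.72). Tet2 was at 1.09 and 3.37 RPKM at E10.5 and 2.17 and 3.15 RPKM at E11.5 (log2 fold change 0.26 ± 0.39 SE, limma adjusted p = 0.72). Apex1, a base excision repair enzyme and the most abundant member, was at 386 and 437 RPKM at E10.5 and 378 and 402 RPKM at E11.5. Uhrf1 (limma adjusted p = 0.073), Gadd45b (0.1), Mbd1 (0.08) and Parp1 (0.11) did not pass with group weights. Uhrf1 (adjusted p = 0.13) and Parp1 (0.12) did not pass without E10.5 replicate 1. Gadd45b (adjusted p = 0.31), Mbd1 (0.14) and Parp1 (0.073) did not pass without E10.5 replicate 2. Uhrf1 (adjusted p = 0.14), Gadd45b (0.15), Mbd1 (0.11) and Parp1 (0.14) did not pass without E11.5 replicate 1. Gadd45b (adjusted p = 0.18), Mbd1 (0.11) and Parp1 (0.14) did not pass without E11.5 replicate 2. Tet1 passed in all 6 of these fits.

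Histone modifiers gave 5 higher and 1 lower of 37 tested members (46 listed), with a median of 0.20. Over all tested genes 5.75% were higher and 6.0% lower. The histone modifier list had 1 higher and 1 lower with group weights, 9 and 1 with equal column sums (median 0.42), 1 and 0 without E10.5 replicate 1 (median 0.10), 5 and 1 without E10.5 replicate 2 (median 0.23), 0 and 0 without E11.5 replicate 1 (median 0.27) and 0 and 0 without E11.5 replicate 2 (median 0.21). Of the members that rose, 4 are lysine demethylases of the Kdm3 and Kdm4 families. Kdm4b was at 4.77 and 4.76 RPKM at E10.5 and 14.02 and 17.5 RPKM at E11.5 (log2 fold change 1.53 ± 0.40 SE, limma adjusted p = 0.024) and Kdm4c at 0.361 and 0 RPKM at E10.5 and 5.58 and 2.66 RPKM at E11.5 (log2 fold change 2.07 ± 0.55 SE, limma adjusted p = 0.024). Kdm4c reached the filter's 1 RPKM only at E11.5 and so had to be higher there. Cbx5, a heterochromatin protein, was at 144 and 87.5 RPKM at E10.5 and 62.6 and 65.03 RPKM at E11.5 (log2 fold change -0.80 ± 0.20 SE, limma adjusted p = 0.019), while its relative Cbx1 was at 122 and 117 RPKM at E10.5 and 95.8 and 151 RPKM at E11.5 with overlapping libraries. Kdm4c (limma adjusted p = 0.086) did not pass with group weights. Kdm4c (adjusted p = 0.057), Kdm4b (0.083) and Cbx5 (0.18) did not pass without E10.5 replicate 1. Kdm4c (adjusted p = 0.079) and Kdm4b (0.056) did not pass without E10.5 replicate 2. Kdm4c (adjusted p = 0.18), Kdm4b (0.077) and Cbx5 (0.099) did not pass without E11.5 replicate 1. Kdm4c (adjusted p = 0.052), Kdm4b (0.14) and Cbx5 (0.086) did not pass without E11.5 replicate 2.

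Imprinted genes, which are expressed from 1 parental copy, gave 3 higher and 3 lower of 20 tested members (34 listed), with a median of 0.29. Over all tested genes 5.75% were higher and 6.0% lower. The imprinted gene list had 2 higher and 2 lower with group weights, 3 and 3 with equal column sums (median 0.48), 2 and 3 without E10.5 replicate 1 (median -0.19), 3 and 4 without E10.5 replicate 2 (median 0.22), 2 and 3 without E11.5 replicate 1 (median 0.14) and 0 and 2 without E11.5 replicate 2 (median 0.15). Phlda2, a growth restrainer of the placenta that also stands on the extraembryonic list, had the largest fitted fall of the genes named here. It was at 76.9 and 25.9 RPKM at E10.5 and 0 and 0.382 RPKM at E11.5, after 429 and 231 RPKM at E9.5 (log2 fold change -5.28 ± 0.55 SE, limma adjusted p = 5.2e-05). Phlda2 reached the filter's 1 RPKM only at E10.5 and so had to be lower at E11.5. Grb10, an inhibitor of growth factor receptors, was at 16.2 and 18.9 RPKM at E10.5 and 6.62 and 3.75 RPKM at E11.5 (log2 fold change -1.62 ± 0.35 SE, limma adjusted p = 0.0091). Gnas, the stimulatory G protein subunit, was at 151 and 139 RPKM at E10.5 and 74.9 and 56.7 RPKM at E11.5 (log2 fold change -1.141 ± 0.20 SE, limma adjusted p = 0.0027). Snrpn, a splicing protein gene, was at 0.00756 and 22.7 RPKM at E10.5 and 43.9 and 53.6 RPKM at E11.5, so that its rise (log2 fold change 3.34 ± 0.86 SE, limma adjusted p = 0.021) rested on an E10.5 library near 0. Sgce, a membrane glycoprotein, was at 6.75 and 6.05 RPKM at E10.5 and 14.1 and 22.8 RPKM at E11.5 (log2 fold change 1.36 ± 0.35 SE, limma adjusted p = 0.021), and Impact, a translation regulator, was at 18.3 and 18.3 RPKM at E10.5 and 33.9 and 38.004 RPKM at E11.5 (log2 fold change 0.93 ± 0.20 SE, limma adjusted p = 0.0083). Peg3, a zinc finger protein and the most abundant member that did not pass, was at 36.1 and 53.5 RPKM at E10.5 and 54.96 and 71.2 RPKM at E11.5. Grb10 (limma adjusted p = 0.051) and Sgce (0.088) did not pass with group weights. Snrpn (adjusted p = 0.059) and Sgce (0.063) did not pass without E10.5 replicate 1. Sgce (adjusted p = 0.059) did not pass without E10.5 replicate 2. Snrpn (adjusted p = 0.085) did not pass without E11.5 replicate 1. Grb10 (adjusted p = 0.097), Snrpn (0.11), Sgce (0.18) and Impact (0.071) did not pass without E11.5 replicate 2. Gnas passed in all 6 of these fits. Phlda2 passed too, but the filter had fixed its direction.

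BMP signalling was followed through its ligands, receptors and targets. Of 31 listed genes, 31 had a line in the table and 20 passed the filter, with 0 higher, 8 lower and 12 not passing, beside 6.0% lower over all tested genes. Their median log2 fold change was -0.16, and its sign turned with equal column sums. The BMP list had 0 higher and 6 lower with group weights, 0 and 8 with equal column sums (median 0.07), 0 and 5 without E10.5 replicate 1 (median -0.34), 0 and 7 without E10.5 replicate 2 (median -0.23), 0 and 6 without E11.5 replicate 1 (median -0.37) and 0 and 6 without E11.5 replicate 2 (median -0.12). The 8 genes that fell are BMP-responsive transcription regulators and the pseudoreceptor Bambi. Msx1, a homeobox factor, was at 50.7 and 48.02 RPKM at E10.5 and 2.36 and 1.30 RPKM at E11.5, a 26.97-fold lower mean (log2 fold change -4.18 ± 0.45 SE, limma adjusted p = 7.4e-05). Its relative Msx2 was at 87.9 and 73.8 RPKM at E10.5 and 29.3 and 30.1 RPKM at E11.5 (log2 fold change -1.41 ± 0.33 SE, limma adjusted p = 0.014). Hand1, a basic helix-loop-helix factor of extraembryonic mesoderm and heart, was at 36.7 and 30.4 RPKM at E10.5 and 5.92 and 0.160 RPKM at E11.5 (log2 fold change -3.60 ± 0.57 SE, limma adjusted p = 0.0015). The inhibitors of such factors, the Id proteins, all fell. Id1 was at 398 and 265 RPKM at E10.5 and 90.6 and 99.3 RPKM at E11.5 (log2 fold change -1.77 ± 0.27 SE, limma adjusted p = 0.0013), Id2 at 217 and 162 RPKM at E10.5 and 63.7 and 57.2 RPKM at E11.5 (log2 fold change -1.62 ± 0.27 SE, limma adjusted p = 0.0021), Id3 at 1081 and 952 RPKM at E10.5 and 577 and 632 RPKM at E11.5 (log2 fold change -0.75 ± 0.15 SE, limma adjusted p = 0.0072) and Id4 at 32.5 and 24.8 RPKM at E10.5 and 8.89 and 2.50 RPKM at E11.5 (log2 fold change -2.32 ± 0.67 SE, limma adjusted p = 0.035). Bambi was at 154 and 233 RPKM at E10.5 and 83.04 and 58.3 RPKM at E11.5 (log2 fold change -1.43 ± 0.21 SE, limma adjusted p = 7.4e-04). As in every gene that passed and fell, both E11.5 libraries lay below both E10.5 libraries in each of the 8. That also held in 24.1% of all tested genes. Bmp4, the ligand that induces PGCs, was at 197 and 200.3 RPKM at E10.5 and 181 and 175 RPKM at E11.5 (log2 fold change -0.16 ± 0.31 SE, limma adjusted p = 0.80). The receptor Bmpr1a was at 6.76 and 7.37 RPKM at E10.5 and 7.09 and 10.9 RPKM at E11.5 and the transducer Smad5 at 27.2 and 30.1 RPKM at E10.5 and 40.2 and 41.7 RPKM at E11.5, and neither passed.

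In 7 of the 8 both E9.5 libraries lay above both E10.5 libraries, and the panels of falling genes show the 4 days side by side. Msx1 was at 378 and 391 RPKM at E9.5 and 11.7 and 18.5 RPKM at E12.5, Hand1 at 261 and 245 RPKM at E9.5 and 1.24 and 3.13 RPKM at E12.5, Id1 at 646 and 432 RPKM at E9.5 and 65.2 and 69.001 RPKM at E12.5 and Msx2 at 248 and 209 RPKM at E9.5 and 26.9 and 30.5 RPKM at E12.5. Id3 differed, with its E10.5 libraries above both E9.5 libraries, which were at 619 and 541 RPKM. Msx2 (limma adjusted p = 0.078) and Id4 (0.15) did not pass with group weights. Msx2 (adjusted p = 0.079), Id3 (0.055) and Id4 (0.14) did not pass without E10.5 replicate 1. Id4 (adjusted p = 0.058) did not pass without E10.5 replicate 2. Msx2 (adjusted p = 0.078) and Id3 (0.066) did not pass without E11.5 replicate 1. Msx2 (adjusted p = 0.075) and Id4 (0.27) did not pass without E11.5 replicate 2. Msx1, Hand1, Id1, Id2 and Bambi passed in all 6 of these fits.

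**Figure D3:**
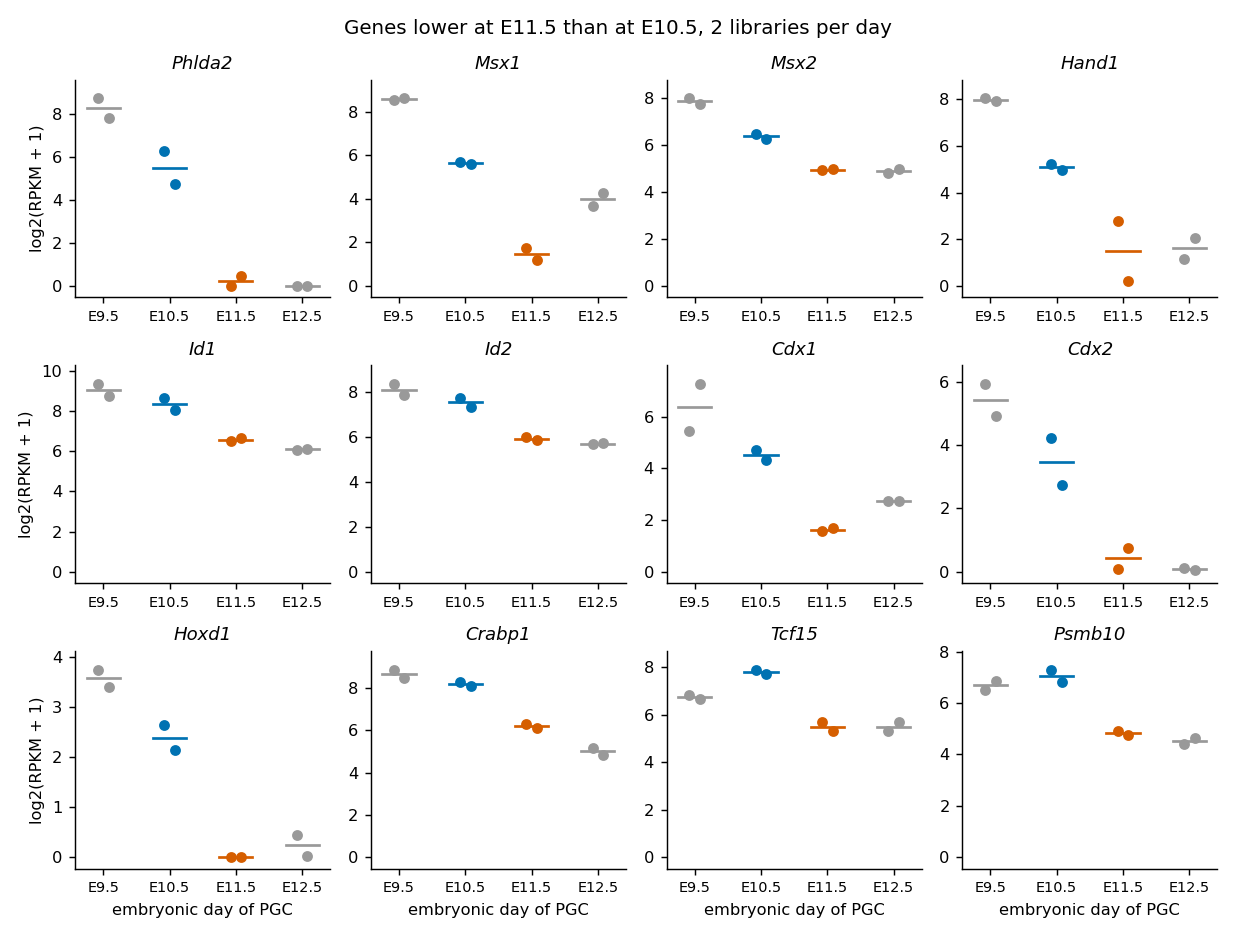
Level of 12 genes that fell between E10.5 and E11.5 in each library, as log2(RPKM + 1), against the embryonic day of the PGCs. Points are libraries (2 per day), horizontal bars are the mean of the 2 points, and E10.5 and E11.5 are coloured blue and orange. In all 12 panels both orange points lie below both blue points, as in every gene that passed and fell. That also held in 24.1% of all tested genes. In Phlda2, Cdx2 and Hoxd1 the filter had fixed this order. Tcf15 and Psmb10 are the panels in which E10.5 has the highest mean of the 4 days.

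Hox and caudal patterning genes were mostly under the filter. Of 38 listed genes, 35 had a line in the table and 9 passed the filter, and 15 were listed at 0 in all 4 libraries. Of the 9 tested, 5 were lower and 0 were higher, beside 6.0% lower and 5.75% higher over all tested genes, with a median of -1.39. The Hox list had 0 higher and 3 lower with group weights, 0 and 5 with equal column sums (median -1.19), 0 and 5 without E10.5 replicate 1 (median -1.68), 0 and 4 without E10.5 replicate 2 (median -1.26), 0 and 5 without E11.5 replicate 1 (median -1.99) and 0 and 3 without E11.5 replicate 2 (median -0.78). Cdx2 and Hoxd1 reached the filter's 1 RPKM only at E10.5 and so had to be lower at E11.5. Cdx1 and Cdx2 are homeobox factors of the posterior body axis. Cdx2 was at 17.5 and 5.69 RPKM at E10.5 and 0.0721 and 0.666 RPKM at E11.5 (log2 fold change -3.06 ± 0.49 SE, limma adjusted p = 0.0015), and Cdx1 at 25.5 and 18.9 RPKM at E10.5 and 1.95 and 2.23 RPKM at E11.5 (log2 fold change -2.90 ± 0.48 SE, limma adjusted p = 0.0022). Hoxd1 was at 5.25 and 3.40 RPKM at E10.5 and was listed at 0 in both E11.5 libraries (limma adjusted p = 2.0e-04). Hoxd8 and Hoxd9, further members of the same cluster, were the other genes that fell. Cdx4, the third caudal factor, was at 5.53 and 4.35 RPKM at E10.5 and 4.05 and 3.05 RPKM at E11.5 (log2 fold change -0.39 ± 0.39 SE, limma adjusted p = 0.58). T, the primitive streak factor brachyury, was at 21.7 and 22.7 RPKM at E10.5 and 8.57 and 8.33 RPKM at E11.5 and was lower in both E11.5 libraries without passing (log2 fold change -1.30 ± 0.56 SE, limma adjusted p = 0.15). None of the 5 tested primitive streak genes passed limma's adjusted threshold, and 2 had an unadjusted p under 0.05. Tcf15, a basic helix-loop-helix factor of somites, is on no list and was singled out after its values were seen. It was at 234 and 207 RPKM at E10.5 and 50.9 and 38.2 RPKM at E11.5 (log2 fold change -2.29 ± 0.27 SE, limma adjusted p = 1.7e-04). Hoxd8 (limma adjusted p = 0.088) and Hoxd9 (0.081) did not pass with group weights. Hoxd8 (adjusted p = 0.11) did not pass without E10.5 replicate 1. Hoxd9 (adjusted p = 0.12) did not pass without E10.5 replicate 2. Hoxd8 (adjusted p = 0.23) and Hoxd9 (0.23) did not pass without E11.5 replicate 2. Cdx1 and Tcf15 passed in all 6 of these fits. Cdx2 and Hoxd1 passed too, but the filter had fixed their direction.

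Other signalling pathways gave 1 or 2 calls each, to be read beside 5.75% higher and 6.0% lower over all tested genes. Of the tested WNT pathway genes, 1 of 23 fell and 0 rose (median 0.06). Wnt5a, a ligand of the non-canonical branch, was at 4.09 and 6.09 RPKM at E10.5 and 1.42 and 1.03 RPKM at E11.5 (log2 fold change -1.44 ± 0.37 SE, limma adjusted p = 0.021), and the transducer Ctnnb1 was at 60.3 and 107 RPKM at E10.5 and 88.04 and 96.9 RPKM at E11.5. Of the FGF and ERK feedback genes, 2 of 19 rose (median 0.14). They were the early response factor Egr1, at 8.41 and 6.99 RPKM at E10.5 and 26.6 and 41.7 RPKM at E11.5 (log2 fold change 1.98 ± 0.40 SE, limma adjusted p = 0.0064), and the feedback inhibitor Spred1, at 6.998 and 10.7 RPKM at E10.5 and 17.1 and 19.4 RPKM at E11.5 (log2 fold change 0.99 ± 0.31 SE, limma adjusted p = 0.048). Etv5, an ETS factor downstream of FGF, was at 101 and 94.9 RPKM at E10.5 and 139 and 144 RPKM at E11.5 (log2 fold change 0.52 ± 0.18 SE, limma adjusted p = 0.07). In the NODAL and activin list, 1 of 13 rose (median 0.33), the co-receptor Tdgf1 given above, and the transducer Smad2 was at 42.02 and 46.01 RPKM at E10.5 and 59.7 and 60.2 RPKM at E11.5. In the hedgehog, Notch and retinoic acid list, 1 of 15 rose and 1 fell (median 0.40), and both belong to retinoic acid handling. Crabp1, the cytoplasmic carrier of retinoic acid, was at 315 and 271 RPKM at E10.5 and 78.9 and 67.7 RPKM at E11.5, a 4.001-fold lower mean (log2 fold change -1.99 ± 0.29 SE, limma adjusted p = 7.3e-04). Rara, a retinoic acid receptor, was at 9.61 and 12.7 RPKM at E10.5 and 21.7 and 24.4 RPKM at E11.5 (log2 fold change 0.996 ± 0.21 SE, limma adjusted p = 0.0091). Hes1, a Notch target, was at 24.2 and 41.1 RPKM at E10.5 and 52.5 and 50.3 RPKM at E11.5 (log2 fold change 0.69 ± 0.25 SE, limma adjusted p = 0.083). The WNT list had 0 higher and 0 lower with group weights, 1 and 1 with equal column sums (median 0.28), 0 and 2 without E10.5 replicate 1 (median 0.10), 1 and 0 without E10.5 replicate 2 (median 0.12), 0 and 0 without E11.5 replicate 1 (median 0.12) and 0 and 0 without E11.5 replicate 2 (median -0.04). The FGF list had 1 higher and 0 lower with group weights, 5 and 0 with equal column sums (median 0.40), 1 and 1 without E10.5 replicate 1 (median -0.02), 3 and 0 without E10.5 replicate 2 (median 0.30), 1 and 0 without E11.5 replicate 1 (median 0.24) and 0 and 0 without E11.5 replicate 2 (median 0.22). The NODAL list had 1 higher and 0 lower with group weights, 1 and 0 with equal column sums (median 0.51), 0 and 1 without E10.5 replicate 1 (median 0.21), 0 and 0 without E10.5 replicate 2 (median 0.31), 0 and 0 without E11.5 replicate 1 (median 0.25) and 0 and 0 without E11.5 replicate 2 (median 0.35). The hedgehog, Notch and retinoic acid list had 1 higher and 1 lower with group weights, 2 and 1 with equal column sums (median 0.65), 0 and 1 without E10.5 replicate 1 (median 0.20), 2 and 1 without E10.5 replicate 2 (median 0.99), 1 and 1 without E11.5 replicate 1 (median 0.86) and 0 and 1 without E11.5 replicate 2 (median 0.35). Wnt5a (limma adjusted p = 0.09) and Spred1 (0.14) did not pass with group weights. Spred1 (adjusted p = 0.26), Tdgf1 (0.06) and Rara (0.064) did not pass without E10.5 replicate 1. Wnt5a (adjusted p = 0.077) and Tdgf1 (0.093) did not pass without E10.5 replicate 2. Wnt5a (adjusted p = 0.069), Spred1 (0.13) and Tdgf1 (0.14) did not pass without E11.5 replicate 1. Wnt5a (adjusted p = 0.12), Egr1 (0.073), Spred1 (0.21), Tdgf1 (0.096) and Rara (0.074) did not pass without E11.5 replicate 2. Crabp1 passed in all 6 of these fits.

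Surface and migration genes had few calls, which turned with the scaling. Of 30 tested members, 3 fell and 0 rose, beside 6.0% lower and 5.75% higher over all tested genes, with a median of -0.03. The migration and surface list had 0 higher and 2 lower with group weights, 5 and 2 with equal column sums (median 0.21), 1 and 0 without E10.5 replicate 1 (median -0.10), 0 and 2 without E10.5 replicate 2 (median -0.05), 0 and 0 without E11.5 replicate 1 (median -0.05) and 0 and 1 without E11.5 replicate 2 (median -0.09). Cldn7, a tight junction protein that is also on the gut list, was at 4.53 and 2.72 RPKM at E10.5 and 0.437 and 0.598 RPKM at E11.5 (log2 fold change -1.58 ± 0.34 SE, limma adjusted p = 0.0096). Ezr, which links the membrane to actin, was at 90.9 and 109.5 RPKM at E10.5 and 71.9 and 59.5 RPKM at E11.5 (log2 fold change -0.60 ± 0.19 SE, limma adjusted p = 0.047), and Cdc42, a small GTPase of cell polarity, was at 484 and 397 RPKM at E10.5 and 272 and 306 RPKM at E11.5 (log2 fold change -0.60 ± 0.15 SE, limma adjusted p = 0.02). Rac1, a related GTPase, was at 551 and 539 RPKM at E10.5 and 412 and 393 RPKM at E11.5 (log2 fold change -0.44 ± 0.15 SE, limma adjusted p = 0.078). Cldn7 reached the filter's 1 RPKM only at E10.5 and so had to be lower at E11.5. Ezr (limma adjusted p = 0.13) did not pass with group weights. Ezr (adjusted p = 0.20) did not pass with equal column sums. Cldn7 (adjusted p = 0.065), Ezr (0.065) and Cdc42 (0.15) did not pass without E10.5 replicate 1. Ezr (adjusted p = 0.17) did not pass without E10.5 replicate 2. Cldn7 (adjusted p = 0.066), Ezr (0.082) and Cdc42 (0.14) did not pass without E11.5 replicate 1. Ezr (adjusted p = 0.27) and Cdc42 (0.064) did not pass without E11.5 replicate 2.

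Cell cycle genes had few calls, more of them with equal column sums. Of 29 tested mitotic genes, 1 fell and 0 rose (median 0.21), and of 34 replication genes, 1 rose and 0 fell (median 0.10). Over all tested genes 5.75% were higher and 6.0% lower. The mitotic list had 0 higher and 0 lower with group weights, 8 and 0 with equal column sums (median 0.46), 0 and 0 without E10.5 replicate 1 (median 0.13), 1 and 1 without E10.5 replicate 2 (median 0.12), 1 and 0 without E11.5 replicate 1 (median 0.11) and 0 and 0 without E11.5 replicate 2 (median 0.24). After quantile normalization 3 mitotic genes were higher and 0 lower. The replication list had 0 higher and 0 lower with group weights, 3 and 0 with equal column sums (median 0.36), 0 and 1 without E10.5 replicate 1 (median 0.04), 1 and 2 without E10.5 replicate 2 (median 0.13), 0 and 0 without E11.5 replicate 1 (median 0.12) and 1 and 0 without E11.5 replicate 2 (median 0.08). Birc5, the survivin subunit of the chromosomal passenger complex, was at 355 and 317 RPKM at E10.5 and 247 and 220.0 RPKM at E11.5 (log2 fold change -0.52 ± 0.13 SE, limma adjusted p = 0.018). The replication gene that rose was Uhrf1, given above. Ccnb1, the mitotic cyclin, was at 336 and 319.5 RPKM at E10.5 and 426 and 412 RPKM at E11.5 (log2 fold change 0.35 ± 0.13 SE, limma adjusted p = 0.082, and adjusted p = 0.0056 with equal column sums), and Pcna, the replication clamp, was at 651 and 521 RPKM at E10.5 and 450.1 and 524 RPKM at E11.5 (log2 fold change -0.26 ± 0.16 SE, limma adjusted p = 0.33). Of 28 genes of G1 control and the p53 response, 1 rose and 2 fell (median 0.31). The G1 and p53 list had 1 higher and 0 lower with group weights, 4 and 1 with equal column sums (median 0.49), 1 and 1 without E10.5 replicate 1 (median 0.10), 1 and 2 without E10.5 replicate 2 (median 0.10), 0 and 1 without E11.5 replicate 1 (median 0.13) and 0 and 0 without E11.5 replicate 2 (median 0.23). Ccnd2, a D-type cyclin, was at 16.9 and 14.7 RPKM at E10.5 and 6.15 and 0 RPKM at E11.5 (log2 fold change -2.65 ± 0.66 SE, limma adjusted p = 0.019), after 296 and 239.7 RPKM at E9.5. Ccng1, a p53 target, was at 19.11 and 37.5 RPKM at E10.5 and 14.6 and 8.65 RPKM at E11.5 (log2 fold change -1.18 ± 0.36 SE, limma adjusted p = 0.045). Pmaip1, a p53 target that promotes apoptosis, was at 6.05 and 19.7 RPKM at E10.5 and 27.98 and 28.4 RPKM at E11.5 (log2 fold change 1.27 ± 0.38 SE, limma adjusted p = 0.041). Cdk4, the kinase partner of the D-type cyclins, was at 1036 and 864 RPKM at E10.5 and 737 and 667 RPKM at E11.5 (log2 fold change -0.43 ± 0.14 SE, limma adjusted p = 0.065). Birc5 (limma adjusted p = 0.066), Ccnd2 (0.098) and Ccng1 (0.13) did not pass with group weights. Birc5 (adjusted p = 0.12) and Ccng1 (0.10) did not pass with equal column sums. Birc5 (adjusted p = 0.11), Ccnd2 (0.082) and Pmaip1 (0.39) did not pass without E10.5 replicate 1. Ccng1 (adjusted p = 0.25) did not pass without E10.5 replicate 2. Birc5 (adjusted p = 0.052), Ccng1 (0.063) and Pmaip1 (0.15) did not pass without E11.5 replicate 1. Birc5 (adjusted p = 0.14), Ccnd2 (0.21), Ccng1 (0.29) and Pmaip1 (0.15) did not pass without E11.5 replicate 2.

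Mitochondrial respiration uses subunits encoded in the nucleus and in the mitochondrial genome. Of the nuclear-encoded list, 75 genes were listed and 68 passed the filter, 33 fell and 0 rose, beside 6.0% lower over all tested genes, with a median log2 fold change of -0.56. Of 12 tested genes of the mitochondrial genome, 9 fell and 0 rose, beside the same 6.0%, with a median of -0.78. Atp5g3, the ring subunit of ATP synthase, was at 1689 and 1329.6 RPKM at E10.5 and 661 and 727 RPKM at E11.5 (log2 fold change -1.11 ± 0.16 SE, limma adjusted p = 8.9e-04). Ndufb2, a subunit of complex I, was at 709 and 565 RPKM at E10.5 and 332 and 301 RPKM at E11.5 (log2 fold change -0.999 ± 0.19 SE, limma adjusted p = 0.0041). Among mitochondrial transcripts, Mt-cox3 was at 4656 and 4233 RPKM at E10.5 and 1893 and 2159 RPKM at E11.5 (log2 fold change -1.13 ± 0.20 SE, limma adjusted p = 0.0026), and Mt-co1 at 1296 and 1408 RPKM at E10.5 and 596 and 669 RPKM at E11.5 (log2 fold change -1.10 ± 0.17 SE, limma adjusted p = 0.0014). Both encode subunits of cytochrome c oxidase. Cox6b1, a nuclear-encoded subunit of the same complex whose symbol is held by 2 lines of the table, was at 2136 and 1738 RPKM at E10.5 and 1299 and 1299.7 RPKM at E11.5 (log2 fold change -0.57 ± 0.18 SE, limma adjusted p = 0.052). Mt-nd6, a complex I subunit, was at 715 and 494 RPKM at E10.5 and 362 and 394 RPKM at E11.5 (log2 fold change -0.65 ± 0.25 SE, limma adjusted p = 0.10). Atp5g3, Ndufb2, Mt-cox3 and Mt-co1 passed with group weights, with equal column sums and without each of the 4 libraries in turn.

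Of 74 listed ribosomal protein genes 56 passed the filter, 27 fell and 0 rose, beside 6.0% lower over all tested genes, with a median of -0.67. Rpl30 was at 249.7 and 204 RPKM at E10.5 and 65.4 and 43.8 RPKM at E11.5 (log2 fold change -2.05 ± 0.40 SE, limma adjusted p = 0.0052) and Rpl10a at 8.44 and 6.03 RPKM at E10.5 and 0.472 and 1.06 RPKM at E11.5 (log2 fold change -2.23 ± 0.58 SE, limma adjusted p = 0.021). Rplp0, the most abundant member that did not pass, was at 1866 and 1810.5 RPKM at E10.5 and 1520.3 and 1393 RPKM at E11.5 (log2 fold change -0.34 ± 0.11 SE, limma adjusted p = 0.068). Ribosomal protein genes have many near-identical pseudogenes, and 8 members were listed at 0 in all 4 libraries, so their single values are uncertain. Rpl10a (limma adjusted p = 0.091) did not pass with group weights. Rpl10a (adjusted p = 0.10) did not pass without E10.5 replicate 1. Rpl10a (adjusted p = 0.13) did not pass without E11.5 replicate 1. Rpl30 (adjusted p = 0.06) and Rpl10a (0.072) did not pass without E11.5 replicate 2.

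The falls in these 3 lists moved with the summed RPKM, which was higher at E10.5, above all in replicate 1. As a share of the summed RPKM of the library, the nuclear-encoded respiration genes took 5.71% and 5.13% at E10.5 and 4.46% and 4.47% at E11.5. The mitochondrial genome took 3.32% and 3.46%, then 2.176% and 2.49%. Ribosomal protein genes took 4.09% and 3.73%, then 3.05% and 3.04%. The shares were thus lower in both E11.5 libraries too. The medians remained below 0 with equal column sums, at -0.30, -0.52 and -0.41, and after quantile normalization, at -0.12, -0.30 and -0.37. The counts of genes that fell were less stable. For nuclear-encoded respiration they were 4 and 36 without E10.5 replicates 1 and 2, 5 and 4 without E11.5 replicates 1 and 2, 13 with group weights, 15 with equal column sums and 4 after quantile normalization. For the mitochondrial genome they were 5 and 7 without E10.5 replicates 1 and 2, 2 and 6 without E11.5 replicates 1 and 2, 6 with group weights, 6 with equal column sums and 2 after quantile normalization. For ribosomal proteins they were 6 and 32 without E10.5 replicates 1 and 2, 4 and 7 without E11.5 replicates 1 and 2, 17 with group weights, 19 with equal column sums and 10 after quantile normalization. The part of library composition in these falls was not tested.

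**Figure D4:**
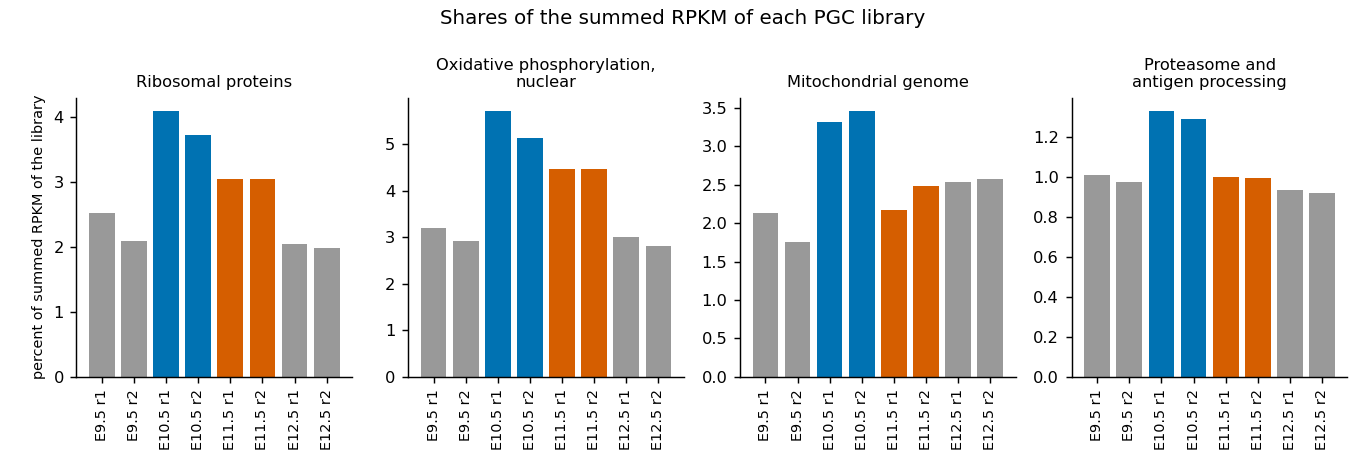
Share of the summed RPKM of each PGC library taken by the listed genes of 4 classes, in percent (vertical axes from 0). Bars are single libraries from E9.5 to E12.5, r1 and r2 are replicates 1 and 2, and E10.5 and E11.5 are blue and orange. In all 4 panels both orange bars lie below both blue bars, and the 2 E10.5 bars are the tallest of the 8.

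Proteasome and antigen processing genes that fell included the immunoproteasome. Of 28 listed genes 26 passed the filter, 12 fell and 0 rose, beside 6.0% lower over all tested genes, with a median of -0.65 and of -0.39 with equal column sums. The lower count was 4 and 12 without E10.5 replicates 1 and 2, 4 and 4 without E11.5 replicates 1 and 2, 9 with group weights, 8 with equal column sums and 3 after quantile normalization. Psmb8, Psmb9 and Psmb10 encode the 3 catalytic subunits that replace the standard ones in the immunoproteasome. Psmb10 was at 155 and 113 RPKM at E10.5 and 28.9 and 26.01 RPKM at E11.5, a 4.88-fold lower mean (log2 fold change -2.23 ± 0.22 SE, limma adjusted p = 3.3e-05). Psmb8 was at 176 and 158 RPKM at E10.5 and 58.8 and 67.6 RPKM at E11.5 (log2 fold change -1.39 ± 0.23 SE, limma adjusted p = 0.002), and Psmb9 at 356 and 271 RPKM at E10.5 and 113 and 131 RPKM at E11.5 (log2 fold change -1.34 ± 0.38 SE, limma adjusted p = 0.034). The standard subunit Psmb5 was at 668 and 557 RPKM at E10.5 and 447 and 399.9 RPKM at E11.5 (log2 fold change -0.53 ± 0.12 SE, limma adjusted p = 0.012). Psme1, an activator of the proteasome, was at 1008 and 858 RPKM at E10.5 and 585 and 578 RPKM at E11.5 (log2 fold change -0.68 ± 0.21 SE, limma adjusted p = 0.052). Bst2, an interferon-induced antiviral protein outside the list, was at 46.8 and 57.1 RPKM at E10.5 and 3.19 and 5.85 RPKM at E11.5 (log2 fold change -3.30 ± 0.35 SE, limma adjusted p = 6.4e-05). B2m, the light chain of MHC class I, was low, at 11.9 and 13.1 RPKM at E10.5 and 5.74 and 6.82 RPKM at E11.5. Psmb9 (limma adjusted p = 0.14) did not pass with group weights. Psmb9 (adjusted p = 0.06) and Psmb5 (0.087) did not pass with equal column sums. Psmb9 (adjusted p = 0.17) and Psmb5 (0.097) did not pass without E10.5 replicate 1. Psmb9 (adjusted p = 0.16) did not pass without E11.5 replicate 1. Psmb9 (adjusted p = 0.11) and Psmb5 (0.11) did not pass without E11.5 replicate 2. Psmb10, Psmb8 and Bst2 passed in all 6 of these fits.

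Of 21 tested glycolysis genes, 4 fell and 0 rose, beside 6.0% lower and 5.75% higher over all tested genes. Their median was -0.20 and changed sign with equal column sums. The glycolysis list had 0 higher and 3 lower with group weights, 2 and 2 with equal column sums (median 0.03), 0 and 3 without E10.5 replicate 1 (median -0.28), 2 and 5 without E10.5 replicate 2 (median -0.01), 0 and 3 without E11.5 replicate 1 (median -0.16) and 0 and 2 without E11.5 replicate 2 (median -0.17). Pgk1, phosphoglycerate kinase, was at 461 and 380.0 RPKM at E10.5 and 198 and 244 RPKM at E11.5 (log2 fold change -0.93 ± 0.14 SE, limma adjusted p = 0.001), and Ldha, the lactate dehydrogenase subunit common in glycolytic tissue, was at 315 and 288 RPKM at E10.5 and 164 and 168 RPKM at E11.5 (log2 fold change -0.86 ± 0.13 SE, limma adjusted p = 9.2e-04). Eno1 and Aldoa were the other genes that fell. Ldhb, the second lactate dehydrogenase subunit, was at 1174 and 1064 RPKM at E10.5 and 883 and 837 RPKM at E11.5 (log2 fold change -0.38 ± 0.16 SE, limma adjusted p = 0.13). In the cholesterol synthesis list, 1 of 28 rose and 1 fell (median 0.09). Lss, lanosterol synthase, was at 8.57 and 0.474 RPKM at E10.5 and 23.4 and 47.9 RPKM at E11.5, with wide gaps within both days (log2 fold change 3.20 ± 0.68 SE, limma adjusted p = 0.009), and Idi1, an isomerase of the same pathway, was at 44.03 and 44.9 RPKM at E10.5 and 22.4 and 21.9 RPKM at E11.5 (log2 fold change -0.98 ± 0.25 SE, limma adjusted p = 0.021). Fdps, of the same pathway, was at 435 and 411 RPKM at E10.5 and 322 and 327 RPKM at E11.5. The cholesterol list had 1 higher and 0 lower with group weights, 1 and 1 with equal column sums (median 0.35), 1 and 0 without E10.5 replicate 1 (median 0.10), 1 and 0 without E10.5 replicate 2 (median -0.04), 1 and 0 without E11.5 replicate 1 (median 0.08) and 0 and 0 without E11.5 replicate 2 (median 0.14). Aldoa (limma adjusted p = 0.08) and Idi1 (0.066) did not pass with group weights. Eno1 (adjusted p = 0.093) and Aldoa (0.13) did not pass with equal column sums. Aldoa (adjusted p = 0.26) and Idi1 (0.073) did not pass without E10.5 replicate 1. Lss (adjusted p = 0.055) and Idi1 (0.053) did not pass without E10.5 replicate 2. Aldoa (adjusted p = 0.11) and Idi1 (0.092) did not pass without E11.5 replicate 1. Eno1 (adjusted p = 0.065), Aldoa (0.18), Lss (0.089) and Idi1 (0.11) did not pass without E11.5 replicate 2. Pgk1 and Ldha passed in all 6 of these fits.

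Immediate early genes respond within minutes to signals and handling. Of 22 tested genes of this list, 5 rose and 2 fell, beside 5.75% higher and 6.0% lower over all tested genes, with a median of 0.25. In 2 of the 22, Fosb 1 of them, the filter was reached only through E11.5, so these had to be higher there. The immediate early list had 3 higher and 0 lower with group weights, 7 and 2 with equal column sums (median 0.50), 4 and 0 without E10.5 replicate 1 (median 0.22), 4 and 1 without E10.5 replicate 2 (median 0.31), 3 and 1 without E11.5 replicate 1 (median 0.46) and 2 and 0 without E11.5 replicate 2 (median 0.21). Fos, a subunit of the AP-1 factor, was at 20.6 and 14.97 RPKM at E10.5 and 90.7 and 110.1 RPKM at E11.5, 5.64-fold higher in mean RPKM (log2 fold change 2.44 ± 0.44 SE, limma adjusted p = 0.0036). At E12.5 it reached 481 and 525 RPKM. Egr1, given above, moved with it, and Dusp1, a phosphatase that ends MAP kinase signals, was at 20.5 and 20.8 RPKM at E10.5 and 50.2 and 49.6 RPKM at E11.5 (log2 fold change 1.23 ± 0.28 SE, limma adjusted p = 0.012). Fosb and Zfp36 were the other genes that rose. Jund, another AP-1 subunit, went the other way, at 68.1 and 72.4 RPKM at E10.5 and 13.3 and 16.02 RPKM at E11.5 (log2 fold change -2.19 ± 0.56 SE, limma adjusted p = 0.02), as did Hspb1, a small heat shock protein, at 317 and 208 RPKM at E10.5 and 74.4 and 50.5 RPKM at E11.5 (log2 fold change -2.05 ± 0.44 SE, limma adjusted p = 0.0091). Atf4, a factor of the stress response, was at 151 and 128 RPKM at E10.5 and 104 and 158 RPKM at E11.5. Dusp1 (limma adjusted p = 0.071), Zfp36 (0.059), Jund (0.11) and Hspb1 (0.052) did not pass with group weights. Dusp1 (adjusted p = 0.051), Jund (0.072) and Hspb1 (0.069) did not pass without E10.5 replicate 1. Zfp36 (adjusted p = 0.065) and Jund (0.055) did not pass without E10.5 replicate 2. Dusp1 (adjusted p = 0.069), Zfp36 (0.074) and Jund (0.11) did not pass without E11.5 replicate 1. Egr1 (adjusted p = 0.073), Dusp1 (0.068), Zfp36 (0.065), Jund (0.082) and Hspb1 (0.087) did not pass without E11.5 replicate 2. Fos passed in all 6 of these fits. Fosb passed too, but the filter had fixed its direction.

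The largest rises outside the lists included genes that were listed at 0 in both E10.5 libraries, and which the filter admitted only through E11.5. They had to be higher there, and their values are given with no test. Il33, an interleukin that also acts in the nucleus, was at 23.8 and 29.7 RPKM at E11.5 and 59.9 and 77.1 RPKM at E12.5. Car7, a carbonic anhydrase, was at 10.999 and 15.7 RPKM at E11.5, and Defb29, a beta-defensin, was at 19.9 and 12.05 RPKM. Hpse2, a heparanase relative, was at 15.2 and 13.5 RPKM. Pdlim3, a cytoskeletal adaptor, was at 10.5 and 9.54 RPKM. AC123425.1, a gene model with no name, was at 10.4 and 14.2 RPKM. Cyct and Tuba3a were above 1 RPKM at E10.5. Cyct, the testis form of cytochrome c, was at 4.62 and 6.07 RPKM at E10.5 and 52.1 and 50.5 RPKM at E11.5, 9.60-fold higher in mean RPKM (log2 fold change 3.05 ± 0.27 SE, limma adjusted p = 1.0e-05). Tuba3a, a testis alpha-tubulin, was at 3.001 and 1.77 RPKM at E10.5 and 40.7 and 34.5 RPKM at E11.5 (log2 fold change 3.53 ± 0.39 SE, limma adjusted p = 8.7e-05). Cd200r1l, a receptor-like surface protein, was at 0.269 and 0 RPKM at E10.5 and 6.35 and 11.5 RPKM at E11.5, and it too reached the filter only through E11.5. Cyct and Tuba3a passed with group weights, with equal column sums and without each of the 4 libraries in turn.

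The largest falls outside the lists described so far included Rgs5, a regulator of G protein signalling, at 14.8 and 33.9 RPKM at E10.5 and 0.883 and 0 RPKM at E11.5 (log2 fold change -4.09 ± 0.55 SE, limma adjusted p = 4.3e-04). Ctrb1, a chymotrypsinogen, was at 24.6 and 28.9 RPKM at E10.5 and 1.37 and 0.604 RPKM at E11.5 (log2 fold change -3.83 ± 0.36 SE, limma adjusted p = 1.9e-05). It was near 0 at E9.5 and E12.5 too, with 0.515 and 0 RPKM at E9.5 and 1.11 and 1.95 RPKM at E12.5, so that only the 2 E10.5 libraries of the PGCs at these 4 days were above 2 RPKM. Myl3, a myosin light chain of muscle, was at 33.9 and 35.99 RPKM at E10.5 and 1.52 and 4.30 RPKM at E11.5 (log2 fold change -3.30 ± 0.45 SE, limma adjusted p = 4.7e-04). Hmgb2, a chromatin protein of dividing cells, was at 121 and 108 RPKM at E10.5 and 7.15 and 7.63 RPKM at E11.5 (log2 fold change -3.78 ± 0.86 SE, limma adjusted p = 0.012), but at 143 and 51.7 RPKM at E9.5 and 138 and 149.9 RPKM at E12.5, so that the E11.5 libraries stood below the other days. B230307C23Rik, a gene with no assigned name, was at 11.6 and 5.40 RPKM at E10.5 and listed at 0 in both E11.5 libraries (limma adjusted p = 0.029). Plvap, a protein of endothelial diaphragms, was at 16.5 and 4.69 RPKM at E10.5 and 0.444 and 0.246 RPKM at E11.5 (log2 fold change -2.90 ± 0.57 SE, limma adjusted p = 0.0057). Rgs5, B230307C23Rik and Plvap reached the filter's 1 RPKM only at E10.5 and so had to be lower at E11.5. Hmgb2 (limma adjusted p = 0.071) and B230307C23Rik (0.10) did not pass with group weights. Hmgb2 (adjusted p = 0.057), B230307C23Rik (0.15) and Plvap (0.057) did not pass without E10.5 replicate 1. Hmgb2 (adjusted p = 0.068) and B230307C23Rik (0.12) did not pass without E11.5 replicate 1. Hmgb2 (adjusted p = 0.067) and B230307C23Rik (0.12) did not pass without E11.5 replicate 2. Ctrb1 and Myl3 passed in all 6 of these fits. Rgs5 passed too, but the filter had fixed its direction.

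Markers of other cell types were summed over whole lists, some of which hold genes that PGCs also express. In bulk libraries, fewer cells of a type and less RNA per cell cannot be told apart. Calls in these lists are to be read beside 5.75% higher and 6.0% lower over all tested genes. The summed level of 21 endothelial markers was 34.7 and 15.3 RPKM at E10.5 and 9.23 and 15.8 RPKM at E11.5, against 409.8 and 146 RPKM at E9.5. Of the 4 tested, Plvap, which had to be lower as given above, fell, and Eng, a co-receptor of endothelial cells, rose from 2.25 and 0.0514 to 4.70 and 4.38 RPKM (log2 fold change 1.58 ± 0.48 SE, limma adjusted p = 0.045). Kdr, a defining receptor of endothelium, was listed at 0 in all 4 libraries, and Egfl7 was at 6.59 and 8.39 RPKM at E10.5 and 2.12 and 7.198 RPKM at E11.5. The 25 blood markers summed to 2.23 and 2.54 RPKM at E10.5 and 9.77 and 2.47 RPKM at E11.5, 16 were listed at 0 in all 4 libraries (Gata1 and Ptprc among them), and Alas2 was at 2.181 and 0 RPKM at E10.5 and 2.48 and 0.791 RPKM at E11.5. The 31 mesenchyme and matrix markers summed to 81.6 and 84.4 RPKM, then 99.6 and 85.4 RPKM. Of these markers 9 were tested, 1 rose and 1 fell. Pdgfra stayed below 1 RPKM in all 4 libraries. Within them Sparc, a matrix protein, rose from 15.7 and 8.77 to 28.7 and 24.5 RPKM (log2 fold change 1.11 ± 0.30 SE, limma adjusted p = 0.026), and Fn1, fibronectin, fell from 18.2 and 25.3 to 8.90 and 9.82 RPKM (log2 fold change -1.12 ± 0.29 SE, limma adjusted p = 0.022). Kitlg, the ligand of Kit, was at 15.2 and 24.8 RPKM at E10.5 and 29.9 and 34.9 RPKM at E11.5.

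The 30 gut and visceral endoderm markers summed to 697 and 657 RPKM at E10.5 and 854 and 858 RPKM at E11.5, of which Apoe, also made by many other cells, was 278 and 227 and then 386 and 409 RPKM. Foxa2 was 1 of 10 of these markers that were listed at 0 in all 4 libraries. Of the 14 tested, 2 rose and 1 fell, beside 5.75% higher and 6.0% lower over all tested genes. In 2 of the 14 the filter was reached only through E11.5, and in 1 only through E10.5. Apoa2, an apolipoprotein, was listed at 0 at E10.5 and was at 6.72 and 5.18 RPKM at E11.5, so that the filter admitted it only through the day where it was higher. The 21 neural and neural crest markers summed to 16.3 and 37.3 RPKM, then 49.7 and 44.9 RPKM. Of the 5 tested, 1 rose and 0 fell. Ret, the receptor of glial-derived neurotrophic factor, rose from 3.34 and 12.2 to 30.6 and 29.2 RPKM (log2 fold change 2.03 ± 0.54 SE, limma adjusted p = 0.026), and Erbb3 was at 8.46 and 15.9 RPKM at E10.5 and 4.72 and 8.37 RPKM at E11.5. The 21 markers of coelomic epithelium and gonadal soma summed to 46.5 and 32.3 RPKM, then 46.8 and 27.5 RPKM, and 0 of the 5 tested passed the adjusted threshold in limma (1 had an unadjusted p under 0.05). Gata4 was listed at 0 in all 4 libraries. The most abundant member, the nuclear receptor Nr0b1, was at 23.4 and 14.5 RPKM at E10.5 and 10.5 and 5.11 RPKM at E11.5 (log2 fold change -1.21 ± 0.39 SE, limma adjusted p = 0.054). Extraembryonic mesoderm markers summed to 369 and 328 RPKM, then 259.6 and 240.0 RPKM, against 2549 and 1820.1 RPKM at E9.5, and 3 of 9 tested fell. Those were Phlda2, Hand1 and Wnt5a, all given above, beside 6.0% lower over all tested genes. The part of other cell types in the falls of BMP targets and caudal genes was not tested. Of the Y-linked genes, Eif2s3y was present in all 4 libraries, at 22.9 and 55.5 RPKM at E10.5 and 32.1 and 31.4 RPKM at E11.5. Ddx3y, whose symbol is held by 2 lines, was at 0.397 and 2.56 RPKM at E10.5 and 6.55 and 5.44 RPKM at E11.5 (log2 fold change 1.64 ± 0.40 SE, limma adjusted p = 0.016). Eng (limma adjusted p = 0.11), Sparc (0.08), Fn1 (0.086), Ret (0.074) and Ddx3y (0.052) did not pass with group weights. Fn1 (adjusted p = 0.083) did not pass with equal column sums. Ret (adjusted p = 0.22) and Ddx3y (0.14) did not pass without E10.5 replicate 1. Eng (adjusted p = 0.29), Sparc (0.15) and Fn1 (0.098) did not pass without E10.5 replicate 2. Eng (adjusted p = 0.16), Sparc (0.15), Fn1 (0.11), Ret (0.12) and Ddx3y (0.099) did not pass without E11.5 replicate 1. Eng (adjusted p = 0.15), Sparc (0.087), Fn1 (0.087), Ret (0.11) and Ddx3y (0.067) did not pass without E11.5 replicate 2.

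**Figure D5:**
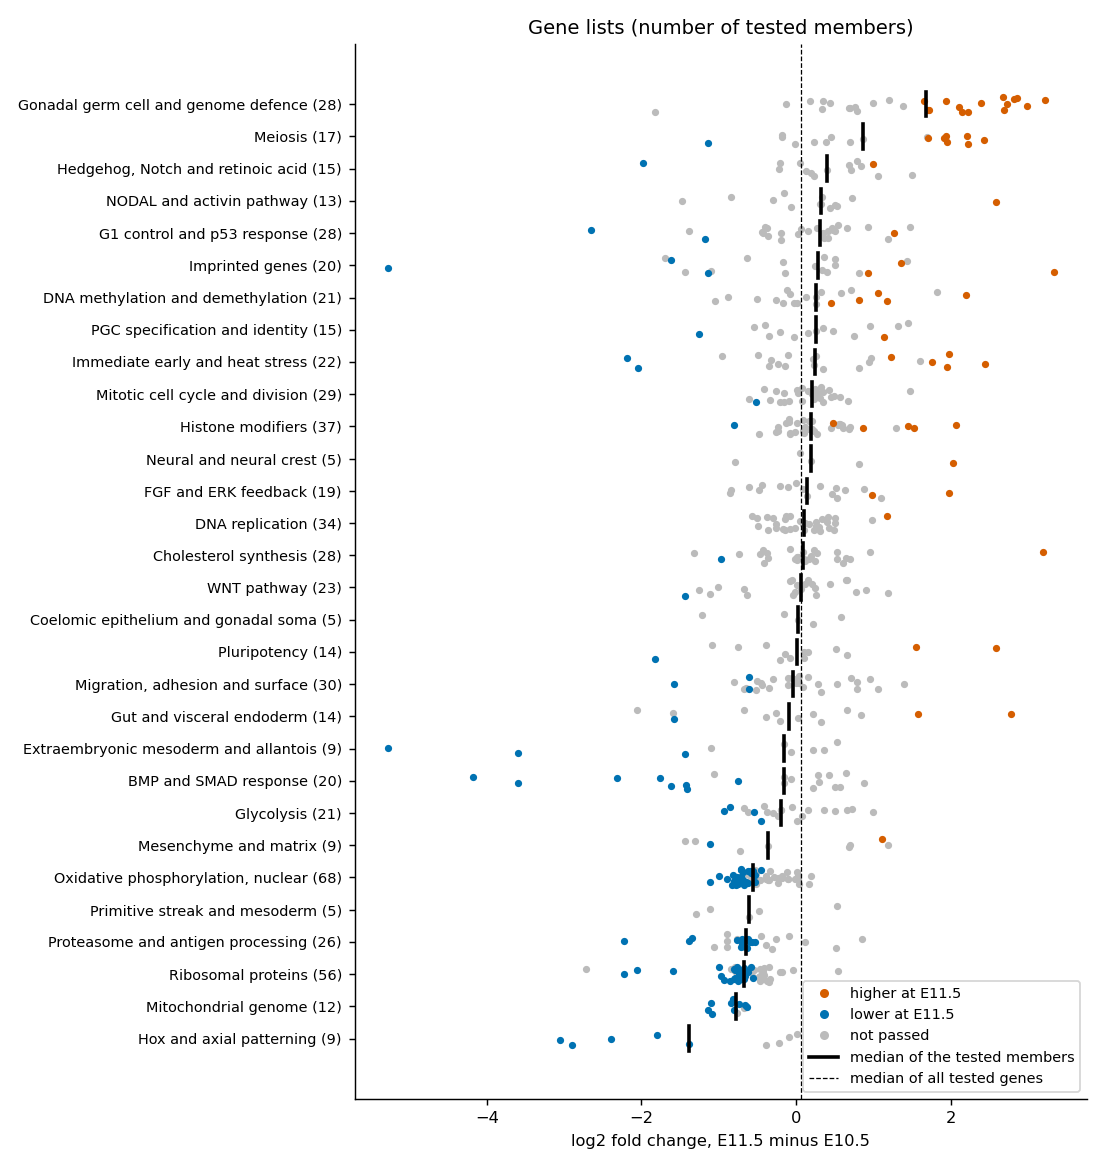
Log2 fold change between E11.5 and E10.5 (horizontal axis) of the tested members of each gene list with at least 5 of them, 1 point per gene and the number of tested members in parentheses. Orange and blue points passed an adjusted p of 0.05 and grey points did not, black bars are list medians, and the dashed line is the median of all tested genes, 0.06. Germ cell and meiosis lists have medians of 1.68 and 0.87, and the Hox list has the lowest, at -1.39.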

How the data were processed

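Per the labels' protocols, RNA was extracted with a PicoPure kit, and cDNA was made with SMART-Seq v4 Ultra Low Input reagents. Software credited to the submitters' processing notes was cutadapt 1.14, bcl2fastq 2.18.0.12, Cufflinks 2.2.1 and TopHat2 2.1.0, with the build rn6. Annotation release, strandedness and the handling of multi-mapping reads were not given in the sources used here. The authors deposited RPKM values in 1 table for all 18 libraries, with no counts, and 0 of its columns lay outside the series.

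Here the RPKM values were taken as log2(RPKM + 1). The filter was 1 RPKM in at least 2 of the 4 libraries compared. limma 3.58.1 (R 4.3.3) was then run over all 18 libraries in 8 groups, which share 1 estimate of the spread, with a variance trend and two-sided tests. Male and female epiblast libraries of the same day were put in 1 group. P-values were adjusted by Benjamini-Hochberg over 11320 genes. The fit was run on simulated data with normal noise and, for each gene, the same spread in all groups. That simulation cannot show how the fit behaves where groups differ in spread, as E10.5 and E11.5 did. Alternatives were a pseudocount of 0.1, other filters, the 4 or the 12 PGC libraries alone, group weights, no trend, quantile and median normalization, a replicate block and each library left out. Equal column sums and leaving out small RNA and unnamed genes were added after the data were seen.

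The comparison and the gene lists were chosen with earlier results of these data known. Named genes were the 12 largest rises and falls (higher group at a mean of 5 RPKM or more, no overlap, a proper symbol), the 2 largest rises and falls and the most abundant non-passing member of each list, and a fixed set of PGC genes. Of these, 2 are not reported here. Other genes in the text were chosen after their values were seen. Promoters came from RefSeq (GRCr8). Plots used matplotlib 3.10.9 under Python 3.11.15.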

Additional observations from a re-analysis of the deposited data

How the results depend on the processing

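With 2 libraries a group, the number of calls depended on how the spread was estimated. Against 1330 calls (651 higher, 679 lower), the 4 libraries alone gave 82 (40 and 42), the 12 PGC libraries 603 (336 and 267) and group weights 492 (232 and 260). Leaving out 1 library gave 411 to 1583 calls, with 195 to 836 higher and 216 to 747 lower. Equal column sums gave 1328 higher and 360 lower, and quantile normalization 427 lower. The other settings stayed within 1.5 times of each of the 3 counts. None of the 1330 genes called in the main fit was called in the opposite direction by another setting. The main fit used no pairing by replicate number. Deviations of same-numbered libraries correlated at r = -0.0034 across genes, and a shared litter or batch was not tested. The fit with a replicate block gave 1433 calls (717 and 716), 1304 of them shared. Of the 73 named genes that passed, 15 kept the call in all 17 settings that could test them. Among these 15, Il33, Defb29, Hpse2, Car7, AC123425.1 and Pdlim3 had to be higher at E11.5 by the filter, and Phlda2 had to be lower. For these genes the kept direction was fixed in advance. The named calls lost were 50 with the 4 libraries alone, 26 with group weights and 19 with the 12 PGC libraries. A pseudocount of 0.1 lost 14, quantile normalization 12 and equal column sums 6. Leaving out E10.5 replicates 1 and 2 lost 28 and 15, and E11.5 replicates 1 and 2 lost 30 and 34. The depth of these 4 libraries limits what low genes can show.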

Other observations

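Some genes of the gonadal germ cell type that stand on no list also rose, and were picked after their values were seen. Tcl1a, a co-activator of AKT kinase known from germ cells and lymphocytes, was at 29.1 and 36.4 RPKM at E10.5 and 91.4 and 95.6 RPKM at E11.5 (log2 fold change 1.49 ± 0.39 SE, limma adjusted p = 0.024), and at 0 and 2.24 RPKM at E9.5 and 144 and 166 RPKM at E12.5. Tex19.2, the paralog of Tex19.1, was at 24.7 and 14.9 RPKM at E10.5 and 136 and 103 RPKM at E11.5 (log2 fold change 2.56 ± 0.28 SE, limma adjusted p = 8.7e-05), and the 2 genes may share reads. Tuba3b, a testis alpha-tubulin, was at 37.7 and 26.8 RPKM at E10.5 and 106 and 114 RPKM at E11.5 (log2 fold change 1.76 ± 0.30 SE, limma adjusted p = 0.0023). On the falling side, Fabp5, a fatty acid binding protein, was at 451 and 347 RPKM at E10.5 and 153 and 167 RPKM at E11.5 (log2 fold change -1.30 ± 0.18 SE, limma adjusted p = 4.3e-04), and Vamp8, a vesicle fusion protein, was at 100.3 and 123 RPKM at E10.5 and 39.4 and 37.7 RPKM at E11.5 (log2 fold change -1.50 ± 0.24 SE, limma adjusted p = 0.0015). Tcl1a did not pass without E10.5 replicate 1 (limma adjusted p = 0.12), without E11.5 replicate 1 (0.10) or without E11.5 replicate 2 (0.12). Tex19.2, Tuba3b, Fabp5 and Vamp8 passed in all 6 of these fits.

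Small RNA genes made up 29 of the 1330 calls, from 121 tested, and unnamed gene models 204 from 1330 tested. Over all tested genes 11.7% passed, so both classes were called more often. With both classes left out of the fit, 1141 genes passed, 557 higher and 584 lower. Of the called genes, 139 were listed at 0 in both E10.5 libraries and 33 in both E11.5 libraries.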
